A study of Mus musculus with 12 samples.

Results

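Neuro-2a cells that had received a miR-155 mimic were compared with Neuro-2a cells that had received a miR-155 inhibitor, using 8 of the 12 RNA sequencing libraries of the study. Neuro-2a is a mouse neuroblastoma line used as a neuron-like model, and its genotype is given as wild type (WT). The mimic group held 4 libraries, the inhibitor group held 4, and the 4 remaining libraries came from cells given a control small RNA (miR-Con). Transfection took place in medium free of serum and antibiotics, the medium was replaced 4 h later, and cells grew until day 2 in all groups. The members of the comparison were chosen by column name, each library carrying a number from 1 to 4, and mimic and inhibitor libraries of the same number were set side by side in the model. The labels do not say that a number marks a shared culture, day or batch, nor whether libraries within a group are separate cultures, so each p-value rests on a spread between samples that may be only technical. The values do not measure miR-155 itself or the uptake of either reagent. The contrast places the arm meant to add miR-155 activity against the arm meant to remove it, so it spans the widest range of miR-155 activity that the design intends.

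MicroRNAs guide Argonaute proteins to messenger RNAs whose 3′ UTR pairs with the seed, a short stretch near the 5′ end of the microRNA, and the bound messages are translated less and degraded faster. A mimic is a synthetic double-stranded RNA that supplies the mature microRNA, and an inhibitor is an antisense oligonucleotide that pairs with it and keeps it from its targets. miR-155 is best known from activated immune cells, where it lowers regulators such as Socs1, Bach1 and Jarid2. In the brain it has been studied mostly in inflammation and microglia.

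The mature sequence is shown because the seed, in capitals (bases 2 to 8 from the 5′ end), defines the target sites counted further on. It is taken from RefSeq on GRCm38.p6 (chr16:84714143-84714165, plus strand).
mmu-miR-155-5p: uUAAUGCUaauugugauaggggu

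Sites that pair with the whole seed and face an A opposite base 1 are called 8mer sites and read AGCATTAA. Examples from reported miR-155 targets measured here are given with the 8mer in capitals and the 14 bases before it, from GENCODE M21 transcripts on GRCm38: a site in Jarid2 (chr13:44920079-44920100, plus strand), in Tab2 (chr10:7906691-7906712, minus strand), in Bach1 (chr16:87732174-87732195, plus strand) and in Cux1 (chr5:136274541-136274562, minus strand).
Jarid2: actgattttgttttAGCATTAA
Tab2: gccataaggtagaaAGCATTAA
Bach1: tctatgaacagtttAGCATTAA
Cux1: atagaaaacaaaggAGCATTAA

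Total counts ran from 60695388 to 73777298 in the 8 libraries. Libraries of the same group differed by a chi-square of at least 20.8 per degree of freedom over genes, so none was taken as a copy of another. This value was 20.8 to 37.9 between libraries of numbers 1 to 3 and 100 to 145 in pairs with number 4, over both groups. Of 15767 genes in the table, 12805 passed the filter on low counts. Neuroblastoma identity was checked from 19 neuronal markers, of which 15 exceeded 10 CPM (read counts scaled to library size) with a summed level of 4560 to 4810 CPM in mimic and 4550 to 4860 CPM in inhibitor. Markers of other cells were low in both groups: 5 fibroblast markers summed to 11.5 to 17.0 CPM in mimic and 11.4 to 16.7 in inhibitor, 7 glial markers to 13.4 to 15.2 and 11.7 to 16.7, and 5 immune and endothelial markers to 4.67 to 7.84 and 5.26 to 8.58. Most of the fibroblast sum came from Pdgfrb (mean 11.3 CPM) and most of the glial sum from Mbp (13.2 CPM), both above 10 CPM. The lists named 9 fibroblast, 10 glial and 9 immune and endothelial markers, and those without deposited counts are not in the sums. Among the neuronal markers Th was low, at 1.45 CPM. In bulk RNA, fewer cells of a type and less RNA per cell cannot be told apart.

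One feature passed the test between mimic and inhibitor. Gm49378 (ENSMUSG00000115232, chromosome 14), a predicted gene model, measured 2.31, 2.88, 2.11 and 2.63 CPM in mimic 1 to 4 and 52.8, 33.6, 39.3 and 37.5 CPM in inhibitor 1 to 4. All 4 mimic libraries lay far below all 4 inhibitor libraries, with a log2 fold change of -4.02 (95% interval -4.33 to -3.72, adjusted p = 1.67e-06 by edgeR's quasi-likelihood test, lower at 4 of 4 numbers). It was the only one of 12805 genes called at an adjusted p under 0.05, or 0.00781%, and 0 were called higher in mimic. At an unadjusted p under 0.05 edgeR listed 307 genes (2.4%), 176 (1.37%) with higher and 131 (1.02%) with lower values in mimic, where uniform p-values would give 640. DESeq2 and limma-voom each called 1 gene higher, Slc38a6 and Tafa4 respectively. The control libraries did not hold 1 level of Gm49378: they measured 41.2, 3.83, 40.1 and 34.8 CPM, with control 2 near the mimic libraries. When all 12 libraries were fitted together, so that control 2 entered the estimate of the spread, the log2 fold change stayed at -3.99 but the call was lost, with an adjusted p of 1 by edgeR with the number as a term and 0.0948 without it.

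Gm49378 shares its strand and part of its span with Ipo4 and Tm9sf1 in the annotation, so the way reads were divided between them is uncertain (annotation of GRCm38, matched by identifier). Ipo4 encodes importin 4, a carrier of proteins into the nucleus. It measured 200, 202, 214 and 214 CPM in mimic 1 to 4 and 188, 179, 176 and 181 CPM in inhibitor 1 to 4. The groups did not overlap, in the direction opposite to Gm49378 (log2 fold change 0.20, 95% interval 0.11 to 0.29, unadjusted p = 6.92e-04, adjusted p = 0.993 by edgeR). With the counts of both features added up, in an analysis chosen after seeing the data, the mimic libraries summed to 209.7 ± 7.34 CPM and the inhibitor libraries to 221.4 ± 12.9 CPM (mean ± SD, n = 4 each). The sum differed by -0.077 on the log2 scale (-0.18 to 0.028, adjusted p = 0.993 by edgeR), and no gene of the table was then called. Gm49378 took 0.979% to 1.41% of the sum in mimic libraries and 15.8% to 21.9% in inhibitor libraries. Tm9sf1, which was not in the sum, also did not overlap between groups, at 67.1 to 73.0 CPM in mimic and 61.6 to 65.7 CPM in inhibitor. Control 2, low in Gm49378, had the highest Ipo4 (235 CPM) and Tm9sf1 (79.5 CPM) of the 12 libraries. The division of reads among the 3 features was not tested.

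**Figure D1:**
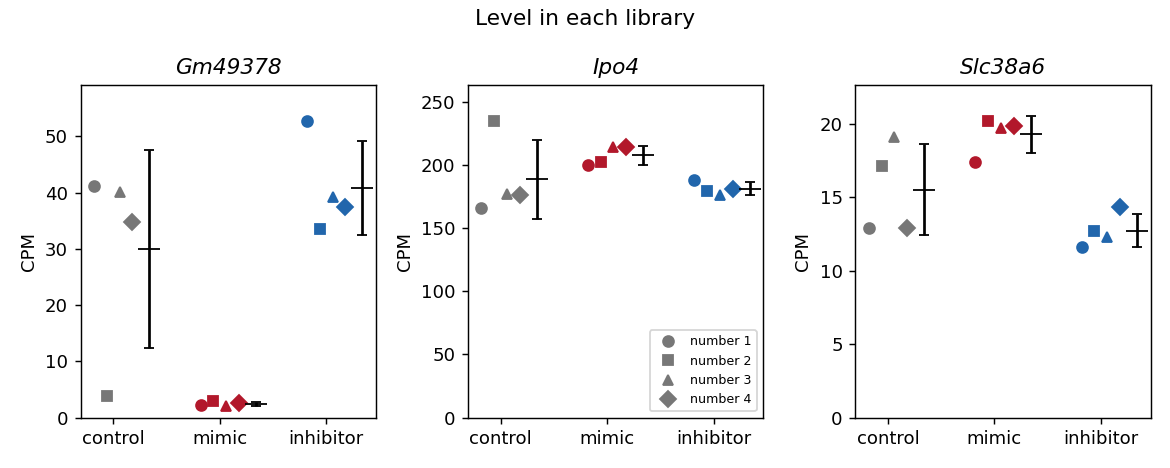
CPM of Gm49378, Ipo4 and Slc38a6 in each library, by group on the horizontal axis, with a marker shape for each number and the mean ± SD of 4 libraries as a bar beside the points. For Gm49378 the mimic libraries lie at 2.11 to 2.88 CPM and the inhibitor libraries at 33.6 to 52.8 CPM, and control 2 lies at 3.83 CPM, apart from the other control libraries.

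Slc38a6, a member of the SLC38 family of amino acid transporters, was next in order of p. It measured 17.4, 20.2, 19.7 and 19.8 CPM in mimic 1 to 4 and 11.6, 12.7, 12.3 and 14.3 CPM in inhibitor 1 to 4. Every mimic library exceeded every inhibitor library, and the control libraries, at 12.9, 17.1, 19.1 and 12.9 CPM, spread over both ranges. The log2 fold change was 0.60 (SE 0.071, 95% interval 0.44 to 0.76) and the adjusted p by edgeR was 0.0623, just short of the threshold. The call was made by DESeq2 (adjusted p = 6.33e-07), by edgeR without the low-count filter (0.0228) and by edgeR without number 1 (0.00585), while the adjusted p under the other alternatives ran from 0.0508 to 1. The longest annotated 3′ UTR of Slc38a6 holds a 7-base site for the miR-155 seed, and the gene was higher, not lower, in mimic.

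The other genes listed by smallest p in the direction of mimic were higher at 4 of 4 numbers by construction of the list. The list leaves out Gm, Rik and -ps symbols and genes under 2 CPM. None passed the correction (adjusted p = 0.993 for each by edgeR). Arid4b, a chromatin-associated protein, measured 11.4, 14, 8.15 and 12.8 CPM in mimic 1 to 4 against 8.45, 9.70, 6.22 and 11.5 in inhibitor, a log2 fold change of 0.37 (0.17 to 0.58). Itpr2, a calcium release channel of the endoplasmic reticulum, measured 7.29, 7.4, 5.85 and 9.87 CPM against 4.59, 5.27, 4.83 and 8.54 (0.41, 0.16 to 0.66). Their groups overlapped, since inhibitor 4 exceeded the lowest mimic libraries. Cpeb2 and Igf2bp3, which bind messenger RNA, had log2 fold changes of 0.15 (0.054 to 0.26) and 0.30 (0.098 to 0.49). Riok1, a kinase of small ribosomal subunit maturation, had 0.21 (0.069 to 0.36), and Srcap, a chromatin remodeller, 0.20 (0.058 to 0.34). Phactr2, a phosphatase and actin regulator, measured 7.28, 6.30, 7.01 and 7.85 CPM against 6.22, 4.92, 5.59 and 5.80, with no overlap between groups (0.34, 0.11 to 0.57). Pcdhac1, a protocadherin whose exons are shared with other genes of its cluster, had 0.64 (0.36 to 0.92), and its reads cannot be assigned with certainty.

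In the other direction, the 10 genes listed were lower at 4 of 4 numbers by the same construction, which leaves out Gm, Rik and -ps symbols. Among those left out, 2300009A05Rik had a smaller p than all 10, with a log2 fold change of -0.87 (-1.27 to -0.48). It was lower at 4 of 4 numbers too (unadjusted p = 6.92e-04, adjusted p = 0.993 by edgeR). Slc39a7, a zinc transporter of the endoplasmic reticulum, measured 186, 167, 200 and 200 CPM in mimic 1 to 4 and 235, 214, 230 and 202 CPM in inhibitor 1 to 4. The mimic libraries lay below the inhibitor libraries at each number, but at number 4 by only 0.015 on the log2 scale (log2 fold change -0.23, -0.35 to -0.10, adjusted p = 0.993 by edgeR). Sri, the calcium-binding protein sorcin, measured 10.4, 11.7, 11.0 and 13.6 CPM against 14.7, 13.8, 14 and 15.7, also without overlap (-0.32, -0.50 to -0.15, adjusted p = 0.993 by edgeR). Nr2f6, an orphan nuclear receptor, and Id3, an inhibitor of helix-loop-helix transcription factors, had log2 fold changes of -0.22 (-0.35 to -0.094) and -0.24 (-0.40 to -0.077). Sct, the hormone secretin, had -0.35 (-0.59 to -0.11), the endolysosomal channel gene Tpcn2 -0.34 (-0.56 to -0.12), Cox11, an assembly factor of cytochrome c oxidase, -0.31 (-0.53 to -0.098), Spsb3 -0.38 (-0.66 to -0.11) and Rrnad1 -0.21 (-0.36 to -0.058). None of these passed the correction.

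Zc3h11a, a zinc finger protein linked to messenger RNA export, had the largest difference among these 10 genes. The entry in question measured 20, 7.71, 4.48 and 4.53 CPM in mimic 1 to 4 and 22.4, 14.1, 12.4 and 13.1 CPM in inhibitor 1 to 4. Number 1 stood apart in both groups, and the difference there was -0.16 against -0.83, -1.37 and -1.44 at numbers 2 to 4. It was called without number 1 (log2 fold change -1.28, adjusted p = 6.43e-04 by edgeR) and not with it (-0.98, -1.54 to -0.43, adjusted p = 0.993). This entry overlaps Zbed6 and another entry with the same symbol on the same strand, and the other entry had a value of the opposite sign (0.57, -0.14 to 1.27), so the division of reads between them is uncertain.

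Without number 1, edgeR called 6 genes in all. Besides Gm49378, Slc38a6 and Zc3h11a these were Ipo4 (log2 fold change 0.23, adjusted p = 0.00172), Lars2, the mitochondrial leucyl-tRNA synthetase (0.33, adjusted p = 0.038) and Abi3. Lars2 measured 82.0, 103, 111 and 98.0 CPM in mimic 1 to 4 and 97.3, 86.1, 79.0 and 84.0 in inhibitor 1 to 4, so number 1 was the only number at which it was lower in mimic. Abi3 had 0 counts in mimic 2, 3 and 4 and 0.322 CPM in mimic 1, against 0, 4.56, 1.51 and 0.705 CPM in inhibitor 1 to 4. Tafa4, a secreted neuronal protein gene called by limma-voom alone, had 0 counts in every inhibitor library and 10 to 17 counts per library in mimic, a mean of 0.207 CPM. Against a floor of 3 counts per library in inhibitor (0.0461 CPM on average) it was at least 4.50-fold higher in mimic, and edgeR gave an adjusted p of 0.993. Floors cover counting error only.

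Most genes were measured precisely enough that a sizeable difference between mimic and inhibitor lay outside their interval. The bound of a gene is used here for the end of its 95% interval that lies farther from 0. Over the 12805 genes the median bound was 0.205 on the log2 scale, or 1.15-fold. The whole interval lay within 1 on the log2 scale (2-fold) for 11635 genes (90.9%), within 0.5 (1.41-fold) for 10553 (82.4%), within 0.25 (1.19-fold) for 7916 (61.8%) and within 0.1 (1.07-fold) for 528 (4.12%). By paired one-sided tests against the margin, with Benjamini-Hochberg adjustment over all genes, 11821 genes (92.3%) were equivalent within 1, 10765 (84.1%) within 0.5, 8229 (64.3%) within 0.25 and 0 within 0.1. These intervals describe each gene by itself, and the adjusted one-sided tests describe the set of genes named equivalent.

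Precision followed expression level. For the 2608 genes above 100 CPM the median bound was 0.126 (1.09-fold), and 99.7% lay within 0.5. For the 6600 genes from 10 to 100 CPM the median bound was 0.187 (1.14-fold), and 99.2% lay within 0.5. For the 2285 genes from 1 to 10 CPM it was 0.444 (1.36-fold) and 61.5% lay within 0.5, and for the 1312 genes under 1 CPM it was 1.40 (2.64-fold) with none within 0.5. Among the 8 genes with the most reads, Eef1a1, the translation elongation factor, measured 11321, 10992, 11684 and 11407 CPM in mimic 1 to 4 and 11392, 11068, 11436 and 11315 CPM in inhibitor 1 to 4. Its interval ran from -0.072 to 0.084, so a difference of 0.1 was outside it. Eef2 (-0.13 to 0.058), the chaperone gene Hsp90ab1 (-0.15 to 0.078), the ATP synthase gene Atp5b (-0.14 to 0.052), the pyruvate kinase gene Pkm (-0.14 to 0.12), the cytoskeletal genes Actb (-0.16 to 0.11) and Tubb5 (-0.19 to 0.10) and Actg1 (-0.28 to 0.11) followed. The values of Eef2, Hsp90ab1, Pkm, Actb, Tubb5 and Actg1 turned from below to above 0 without number 1. Actg1 was the widest of these, with 2408.2 CPM in mimic 1 against 3335.0 in inhibitor 1 and 4591.6 against 4550.7 at number 4.

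**Figure D2:**
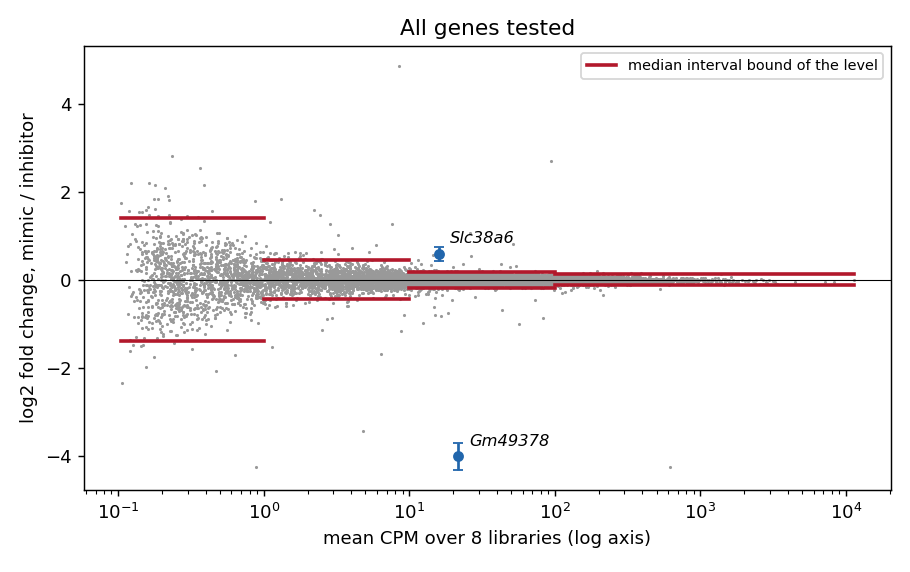
Log2 fold change of mimic over inhibitor (vertical axis) against mean CPM on a log axis for the genes tested, without genes at 0 in a whole group and those beyond 5 on the log2 scale. Red lines give the median interval bound in each range of CPM, 1.40 under 1 CPM and 0.126 above 100 CPM, and the blue points with 95% intervals mark Slc38a6 at 0.60 and Gm49378 at -4.02.

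A small set of well-expressed genes had intervals that extended to large differences. Of 9208 genes at 10 CPM or more, 29 had intervals that reached a 2-fold difference, and 18 of these (62.1%) overlapped another gene of the table on the same strand, against 352 (3.82%) of all genes at that level. Gm49378 is among the 29 with a narrow interval far from 0, and the others have wide intervals. Raver1, a ribonucleoprotein gene that overlaps Gm38431, ranged from 0.0163 to 137 CPM over the 8 libraries, with differences of -0.21, 7.95, 0.14 and 6.96 at numbers 1 to 4. Its partner Gm38431 had 0.23, -1.71, -0.17 and -1.71, low where Raver1 was high. Both entries named Septin2, a cytoskeletal GTPase, also differed in opposite directions, by 0.79, 1.51, -1.25 and -0.69 in one and -2.08, -3.31, 0.59 and 0.40 in the other. The pseudogene Rps18-ps6 ranged from 0 to 872 CPM, with differences of -10.8, -10.7, -0.035 and 0.070 at numbers 1 to 4 (adjusted p = 0.993 by edgeR). How the authors' counting divided reads among such copies was not tested.

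The direction of the difference repeated over all 4 numbers for a minority of genes. Of 12805 genes, 1461 (11.4%) had the same sign at 4 of 4 numbers, 761 (5.94%) higher in mimic and 700 (5.47%) lower. Every pattern of signs without a tie held a like share, from 4.94% (higher at number 2 only) to 8.29% (higher at numbers 1 and 2 only). Agreement at 4 of 4 numbers was thus no more frequent than the mixed patterns. A further 3347 genes were higher at exactly 3 numbers, 4995 at 2 and 2976 at 1. The share with 1 sign hardly varied with level, from 10.9% at 1 to 10 CPM to 12.5% under 1 CPM. The groups did not overlap at all for 110 genes (0.859%), 59 (0.461%) with every mimic library above every inhibitor library and 51 (0.398%) below. Size and repetition rarely met: among genes at 10 CPM or more, 19 differed by over 0.1 in the same direction at 4 of 4 numbers, 2 by over 0.25 (Slc38a6 and Gm49378) and 1 by over 0.5 (Gm49378).

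The 4 numbers were not alike in the size of their differences. At number 1 the differences of the 9208 genes at 10 CPM or more had an SD of 0.249, and 1916 of them (20.8%) exceeded 0.25 in size. At numbers 2, 3 and 4 the SDs were 0.185, 0.136 and 0.140, and 283 (3.07%), 214 (2.32%) and 251 (2.73%) exceeded 0.25. Number 1 thus held several times more differences of this size than any other number. Across these genes the differences at 1 number had little relation to those at another, with Spearman's rho from -0.127 to 0.072 and Pearson's r from -0.058 to 0.329, as a description over genes that share their libraries.

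Transcript length moved with the difference at number 1. Over 9199 genes the difference correlated with the length of the longest annotated transcript at rho = 0.492 at number 1, and at 0.151, -0.038 and -0.072 at numbers 2 to 4. At number 1 the median difference was -0.12 in the quintile of genes with the shortest transcripts (up to 2086 bases) and 0.17 in the longest quintile (from 5476 bases). At numbers 2 to 4 the same medians lay between -0.0097 and 0.0076 and between -0.013 and 0.033. The correlation with GC content was -0.378, -0.144, 0.066 and 0.217 at numbers 1 to 4. The part of length and GC content in the differences was not tested.

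**Figure D3:**
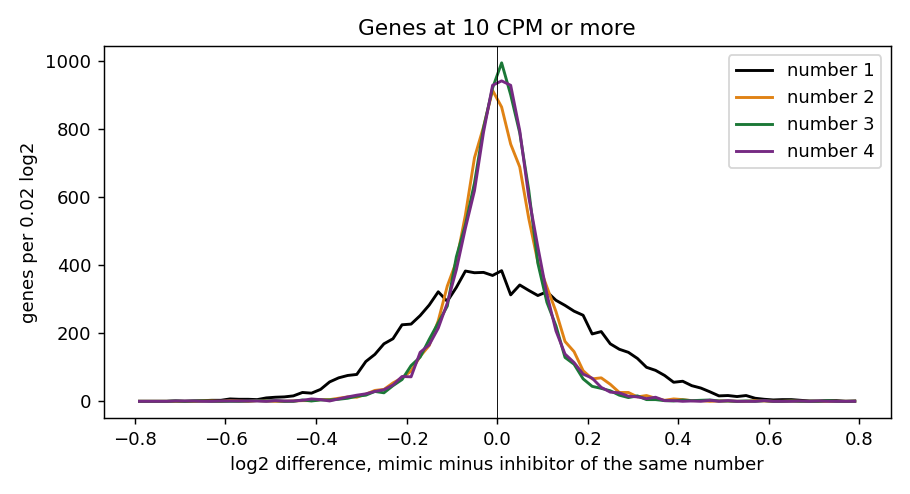
Number of genes in bins of 0.02 on the log2 scale (vertical axis) by the difference between mimic and inhibitor of the same number (horizontal axis), for the 9208 genes at 10 CPM or more, with a line for each number. The curve of number 1 is low and broad (SD 0.249), and those of numbers 2 to 4 are narrow (SD 0.136 to 0.185).

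Gene families, defined by symbol, were described by the median log2 fold change of their members beside the median of all genes tested (0.0029). On log2(TPM + 1) of the deposited values, the median of all genes was 0.0276, with 67.1% of genes above 0. Family medians on TPM are to be read beside that value. Of 69 families with at least 10 members tested, the medians ran from -0.058 for cytosolic ribosomal proteins to 0.054 for the Wnt and Frizzled genes, and 65 lay within 0.05 of 0. Families differed far more at number 1 than elsewhere: 24 of 69 had a median beyond 0.1 there, against 1, 0 and 1 at numbers 2, 3 and 4. Without number 1 the medians ran from -0.045 to 0.069.

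The protein synthesis families had medians below 0, mostly at number 1. Of 82 cytosolic ribosomal proteins, 71 had a negative log2 fold change, 8 were lower at 4 of 4 numbers (9.76%, against 5.47% of all genes) and 3 higher. Their medians at numbers 1 to 4 were -0.22, 0.014, -0.026 and 0.014. Rpl37a, of the large subunit, measured 30.6, 38.7, 39.5 and 36.3 CPM in mimic 1 to 4 and 44.4, 39.6, 45.0 and 37.7 in inhibitor 1 to 4 (log2 fold change -0.20, -0.38 to -0.022, adjusted p = 0.993 by edgeR). The gap was wide at number 1 and small at numbers 2 and 4. Rps10, of the small subunit, had -0.16 (-0.32 to -0.0095), and Rpl22l1, a paralog of Rpl22, -0.18 (-0.34 to -0.024). The ribosomal median was -0.0078 without number 1. The 78 mitochondrial ribosomal proteins had a median of -0.027 (0.0011 on the deposited TPM values, and -0.13 at number 1), with 8 lower at 4 of 4 numbers and 0 higher. Mrpl36 did not overlap between groups, at 19.2, 19.8, 20.1 and 17.7 CPM in mimic against 22.3, 21.1, 22.2 and 21.8 (-0.19, -0.34 to -0.041, adjusted p = 0.993 by edgeR).

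Subunits of the respiratory chain, which the nucleus supplies to the mitochondrial complexes, followed the same pattern. The 39 Nduf subunits of complex I had a median of -0.054, with 33 below 0, 5 lower at 4 of 4 numbers and 0 higher, and medians of -0.26, -0.013, 0.0090 and 0.010 at numbers 1 to 4. Ndufb6 measured 61.7, 72.9, 72.9 and 74.2 CPM in mimic 1 to 4 and 82.2, 79.2, 78.2 and 75.4 in inhibitor 1 to 4, without overlap (-0.16, -0.31 to -0.021, adjusted p = 0.993 by edgeR). Ndufa7 and Ndufa1 had -0.15 (-0.29 to -0.020) and -0.20 (-0.37 to -0.022). In complex III, 8 of 9 subunits were below 0 (median -0.077, and -0.21 at number 1), led by the iron-sulfur protein gene Uqcrfs1 (-0.12, -0.22 to -0.0071). In complex IV, 13 of 15 were below 0 (median -0.051, and -0.20 at number 1). There Cox7a2 (-0.15, -0.28 to -0.030) and Cox7c (0.087, -0.018 to 0.19) both separated the groups, in opposite directions. Of 17 ATP synthase subunits 15 were below 0 (median -0.046), with -0.21 at number 1 and 0.0034 or less in size at numbers 2 to 4, and Atp5g3 measured 414, 523, 523 and 498 CPM in mimic against 606, 563, 535 and 536 in inhibitor (-0.20, -0.37 to -0.028). Without number 1 the medians were 0.014 for complex I, -0.013 for complex III, -0.0093 for complex IV and -0.0054 for ATP synthase. No member of these families passed the correction.

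Several families with low medians at number 1 had short transcripts. The median length of the longest transcript was 709 bases for complex IV subunits, 1005 for complex I subunits and 1107 for cytosolic ribosomal proteins, against 4732 for deubiquitinases and 5578 for kinesins, whose medians at number 1 were 0.20 and 0.16. Histones, at a median of 1020 bases, had -0.043 at number 1, but only 12 of 43 had intervals within 0.5 and their median bound was 1.11. Sterol synthesis enzymes, at 3083 bases, had -0.30. The part of length in the family medians was not tested.

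Families of lipid and sugar metabolism had medians of opposite sign at number 1 and at numbers 2 and 3. The 21 sterol synthesis enzymes had medians of -0.30 at number 1, 0.14 at number 2, 0.085 at number 3 and -0.0050 at number 4. Fdps, which makes farnesyl diphosphate, measured 263 against 341 CPM at number 1, 291 against 283 at number 2, 290 against 281 at number 3 and 394 against 403 at number 4. Its log2 fold change was -0.080 (-0.23 to 0.067) and turned to 0.018 without number 1. With number 1 left out, 19 of 21 sterol enzymes had values above 0 (median 0.069), and with it 4 of 21 (median -0.029). The 20 glycolytic enzymes had medians of -0.19, 0.050, 0.048 and 0.056, and 17 were above 0 without number 1 against 7 with it. Eno2, the neuronal enolase, was higher in mimic at 4 of 4 numbers, at 112, 94.3, 110 and 307 CPM against 109, 90.1, 104 and 291 (0.063, -0.013 to 0.14), with both libraries of number 4 far above the rest. The 49 proteasome genes had a median of -0.020, with 37 below 0 and -0.14 at number 1, and without number 1 the median was 0.012, with 34 above 0. On the deposited TPM values the medians of the proteasome and glycolytic families were above 0, at 0.0076 and 0.018. Both lay below the median of all genes on TPM (0.0276), so they stayed on the lower side of all genes.

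Zinc finger genes, Zbtb genes and deubiquitinases had medians above 0, also mostly at number 1. Other families with nuclear members had medians below 0, among them snRNP proteins (-0.044) and histones (-0.036). Of 359 zinc finger genes with a Zfp symbol, 215 were above 0, 36 were higher at 4 of 4 numbers (10.0%, against 5.94% of all genes) and 11 lower (3.06%, against 5.47%), with medians of 0.13, 0.023, -0.021 and -0.013 at numbers 1 to 4. Zfp280c measured 14.2, 12.6, 11.0 and 10.5 CPM in mimic 1 to 4 and 8.88, 10.7, 9.63 and 9.97 in inhibitor 1 to 4 (0.30, 0.059 to 0.53, adjusted p = 0.993 by edgeR). Zfp646 had 0.14 (0.023 to 0.26). The 39 Zbtb genes had a median of 0.043 (0.16 at number 1) and the 48 deubiquitinases of the Usp family 0.039, with 36 above 0. Without number 1 the medians of the Zfp, Zbtb and Usp families lay between -0.0036 and -0.00022. The 10 Mcm genes, which encode the replicative helicase and its relatives, had a median of -0.0084 (0.019 on TPM), and all 10 intervals lay within 0.25. Of 43 histone genes tested only 12 had intervals within 0.5, so this family was poorly bounded.

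Kinesins, the motors that move along microtubules, were 1 of 6 families out of 69 whose medians had 1 sign at all 4 numbers. The others were deubiquitinases, solute carriers, Cdk, Kdm and Fam genes. This share of families is no larger than the 11.4% of single genes with 1 sign, so it does not set kinesins apart. Of 30 members 22 were above 0, and the medians at numbers 1 to 4 were 0.16, 0.035, 0.0080 and 0.033. At 4 of 4 numbers 5 were higher (16.7%, against 5.94% of all genes) and 0 lower (against 5.47%). Kif3b measured 59.5, 61.6, 56.8 and 52.7 CPM in mimic 1 to 4 and 50.9, 56.0, 52.3 and 51.6 in inhibitor 1 to 4, overlapping between groups (0.13, 0.018 to 0.24, adjusted p = 0.993 by edgeR). Without number 1 the kinesin median was 0.028, with 18 of 30 above 0. The 60 genes with a Rab symbol, mostly GTPases of membrane traffic, had a median of -0.0076 (0.019 on TPM), with 1 higher and 2 lower at 4 of 4 numbers.

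Transporters, channels, adhesion molecules and collagens had, in several families, wide intervals. The 173 solute carriers outside the mitochondrial Slc25a set had a median of -0.016, with 9 higher and 16 lower at 4 of 4 numbers. Their medians at the 4 numbers lay between -0.0028 and -0.014, and on TPM the median was 0.012. Of 39 potassium channel genes 23 had intervals within 0.5. Among them Kcnn4 measured 0.398, 0.214, 0.269 and 0.562 CPM in mimic 1 to 4 and 0.702, 0.685, 0.795 and 0.831 in inhibitor 1 to 4, without overlap (-1.14, -1.97 to -0.30, adjusted p = 0.993 by edgeR). Its level was low, at 15 to 34 counts per library in mimic and 42 to 53 in inhibitor. Of 41 protocadherins 14 had intervals within 0.5, and of 19 collagens 10. The 12 genes with a Cacn symbol, named for calcium channel subunits, included 10 within 0.25.

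**Figure D4:**
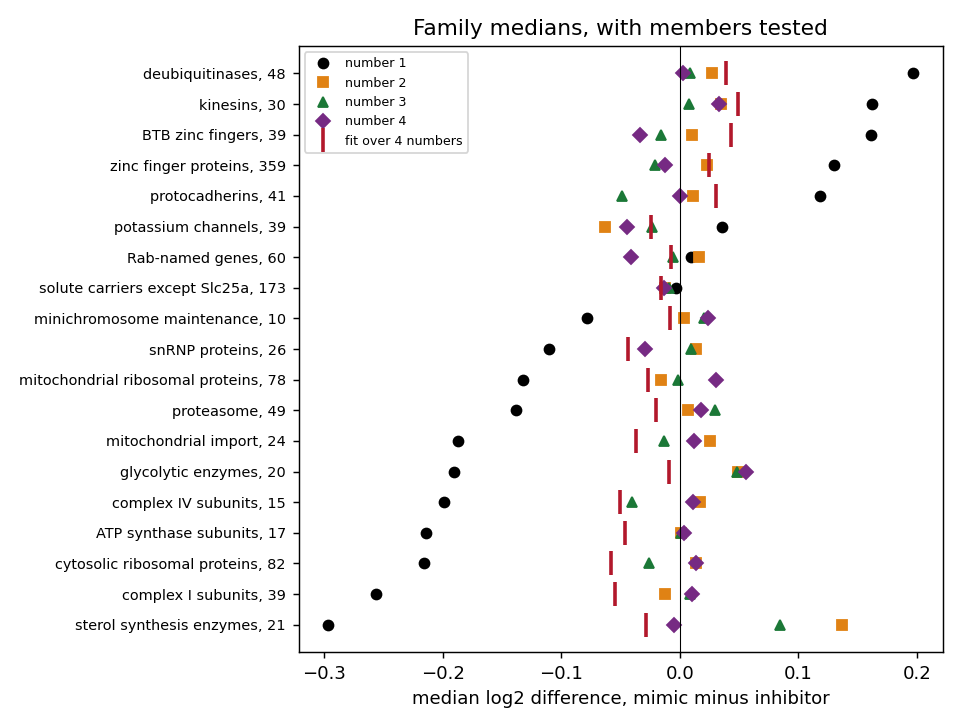
Median log2 difference of mimic minus inhibitor (horizontal axis) for 19 families with their number of members tested, at each number (points) and in the fit over all 4 numbers (red bars). The points of number 1 reach from -0.30 to 0.20, while most points of numbers 2 to 4 lie near 0, apart from sterol synthesis enzymes at numbers 2 and 3.

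No reported target of miR-155 was called lower in mimic, as was the case for all but 1 of the 12805 genes tested (0.00781% called). The count of 0 called among 34 targets is thus at the background. Of these 34, 21 were above 0, with a median of 0.014. At 4 of 4 numbers 4 were higher (11.8%, against 5.94% of all genes) and 0 lower (against 5.47% of all genes). The median was -0.013 without number 1, with 15 above and 19 below 0. At an unadjusted p under 0.05 edgeR listed 2, both higher, and 0 lower, where 2.4% of all genes had such a p. For all 29 targets at 10 CPM or more, the interval excluded a fall of 0.25 on the log2 scale in mimic (15.9% lower), as it did for 93.6% of all genes at that level, so the count is near the background. Jarid2, a partner of the Polycomb complex whose 8mer site is printed above, had a log2 fold change of 0.0040 (-0.099 to 0.11), with 78.7 ± 21.2 CPM over the mimic and 79.0 ± 24.2 CPM over the inhibitor libraries (mean ± SD, n = 4 each). The differences of Jarid2 within numbers were 0.054, 0.057, -0.029 and -0.065, far smaller than its spread between numbers. Bach1, a repressor of antioxidant genes, had -0.022 (-0.25 to 0.20), and Cux1, a homeobox factor, 0.075 (-0.025 to 0.17). Tab2, an adaptor of the TAK1 kinase, was higher in mimic at 4 of 4 numbers (0.14, 0.0040 to 0.27, adjusted p = 0.993 by edgeR), mostly through number 1, where its difference was 0.39 against 0.052 to 0.054 at the others. Picalm, a clathrin assembly protein, had 0.12 (0.016 to 0.22, adjusted p = 0.993 by edgeR). Socs1, at 4.19 ± 0.950 CPM in mimic and 3.65 ± 0.502 in inhibitor, had 0.19 (-0.13 to 0.50). It is scarce and its interval is wide, and it too excluded a fall of 0.25. Fos (-0.29 to 0.12), Trp53inp1 (-0.56 to 0.41) and Il13ra1 (-0.27 to 0.43) were the targets for which such a fall was within the interval.

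**Figure D5:**
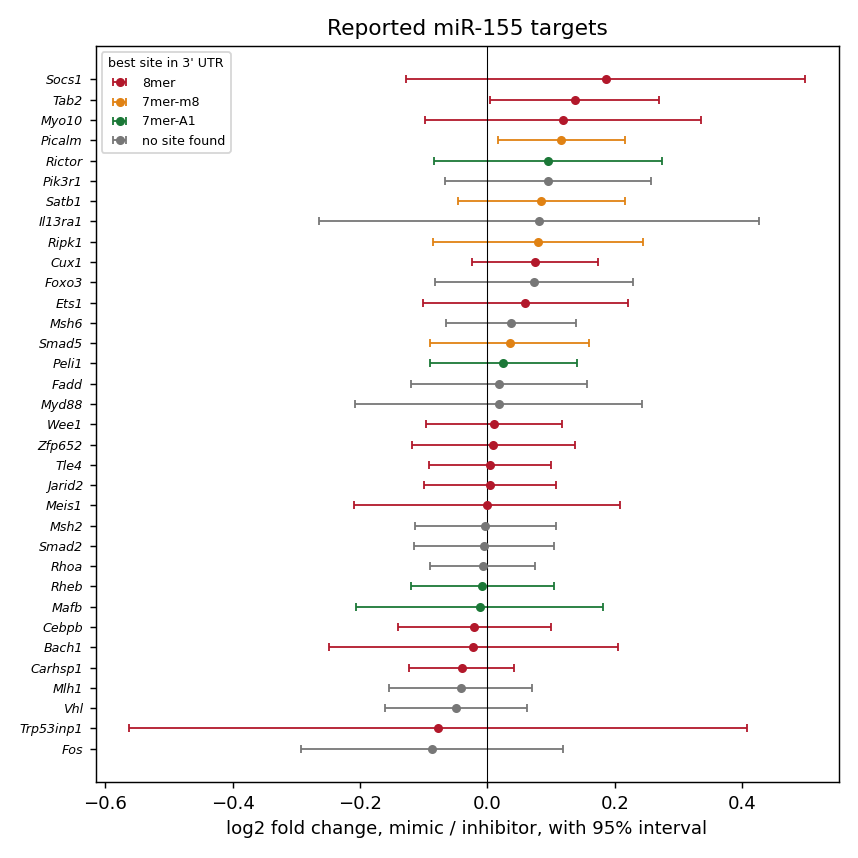
Log2 fold change of mimic over inhibitor with its 95% interval (horizontal axis) for the 34 reported miR-155 targets tested, in order of value and coloured by the best seed site in the longest annotated 3′ UTR. Points run from -0.088 for Fos to 0.19 for Socs1, and no interval lies wholly below 0.

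Genes grouped by the best seed site in their longest 3′ UTR had medians above that of genes without a site over all 4 numbers, and without number 1 the medians of all site groups lay between -0.0028 and 0.0018. The 398 genes with an 8mer had a median of 0.021, the 763 with a 7mer-m8 (AGCATTA, pairing with the whole seed) 0.023, the 601 with a 7mer-A1 (GCATTAA) 0.021 and the 10924 with none -0.000045. The 8mer median was 0.099 at number 1 and 0.012, -0.018 and -0.018 at numbers 2 to 4, and -0.0028 without number 1, against 0.00095 for genes without a site. Of the 8mer genes 21 were higher and 9 lower at 4 of 4 numbers (5.28% and 2.26%, against 5.94% and 5.47% of all genes). Of 306 8mer genes at 10 CPM or more, 295 (96.4%) had intervals that excluded a fall of 0.25, against 93.6% of all 9208 genes at that level, and all 306 excluded a fall of 0.5. Median 3′ UTR length was 2855 bases for 8mer genes and 1157 for genes without a site, so these groups also differ in length, which moved with the difference at number 1. The part of length in these medians was not tested.

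Genes of the microRNA pathway were also described. Of 14 measured members 12 were above 0 (median 0.062, and 0.17 at number 1), with 2 higher and 1 lower at 4 of 4 numbers and 0 at an unadjusted p under 0.05. Their median was 0.0151 without number 1, with 10 above 0. Ago2, the slicing Argonaute, had 0.096 (-0.030 to 0.22), Ago1 0.075 (-0.025 to 0.17) and the export receptor Xpo5 -0.0076 (-0.092 to 0.077). Interferon-stimulated genes, which can respond to transfected RNA, had a median of 0.025 over 16 members, with 10 above 0, and 0.0685 without number 1, with 11 above 0. At 4 of 4 numbers 3 were higher, Rsad2 (0.53, -0.35 to 1.41), Ifit1 (0.55, -0.86 to 1.95) and Rigi (0.089, -0.14 to 0.32). Bst2, tetherin, was lower in mimic at 4 of 4 numbers (-0.13, -0.24 to -0.013, unadjusted p = 0.0324, adjusted p = 0.993 by edgeR). Only 6 of the 16 had intervals within 0.5, and most lay below 10 CPM.

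The genes that the series title names were bounded as follows. Pparg, a lipid-sensing nuclear receptor, measured 19.0, 15.6, 19.7 and 25.1 CPM in mimic 1 to 4 and 14.4, 16.2, 18.2 and 23.6 in inhibitor 1 to 4. The groups overlapped, and the interval of 0.14 ran from -0.046 to 0.32. Esrra, an orphan receptor that regulates energy metabolism, stood at 91.0, 89.9, 99.5 and 75.5 CPM in mimic against 99.6, 94.3, 99.8 and 76.1. It was lower at 4 of 4 numbers, by only 0.0042 and 0.012 at numbers 3 and 4, with an interval from -0.15 to 0.045. Dnm1l, the mitochondrial fission GTPase, measured 76.4, 76.9, 62.5 and 77.4 CPM against 64.3, 70.6, 65.9 and 79.1, and its interval of 0.067 ran from -0.067 to 0.20. Ppargc1a had 0 counts in all 8 libraries. A count of 0 allows up to 3 counts, here 0.0407 to 0.0494 CPM, and no difference below that limit could be detected.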

How the data were processed

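RNA was sequenced from Neuro-2a cells in 12 libraries, of which 8 were compared here. The deposited tables give whole-number read counts and TPM per gene, which the authors made with tools that the submitters' processing notes list on build GRCm39 (STAR, fastp, StringTie, featureCounts and edgeR). For the versions, order and strandedness of these steps, the sources used here give nothing. The test on counts was made in edgeR 4.0.16 (R 4.3.3): TMM scaling, filterByExpr, a robust quasi-likelihood fit with number and group as terms, 8 libraries, two-sided, and Benjamini-Hochberg adjustment over 12805 genes. Intervals are 95%, from the fit's standard errors. Differences within a number are on log2(CPM + 0.5) with TMM-scaled CPM. Alternatives used DESeq2 1.42.0, limma 3.58.1 (voom, and log2(TPM + 1) on the deposited TPM), other scalings and filters, all 12 libraries, no number term, each number left out, and a sum of overlapping genes.

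The members, families and lists were chosen with earlier results of these data known. Named genes were: called genes and, below 6 in a direction, the 10 of smallest p at 2 CPM or more with 1 sign at 4 numbers, the 8 with most reads, up to 3 per family, the title's genes, and genes called under an alternative only. Genes with a Gm, Rik or -ps symbol were left out of the lists by smallest p and by most reads. Symbols came with the tables for 15499 genes and from a name table for 260. 3′ UTRs, lengths and overlaps came from GENCODE M21 on GRCm38, matched by identifier, and the microRNA from RefSeq. On simulated counts for this comparison (12805 genes, 3 simulations), with changed genes drawn from 10 to 100 CPM, edgeR recovered 68.7% of genes changed 1.25-fold and 100% of those changed 1.5-fold. At 1 to 10 CPM it recovered 0.667% at 1.25-fold, 27.3% at 1.5-fold and 83.3% at 2-fold. Each simulation held many changed genes at once, some of them 4-fold, which eases the adjusted threshold. These shares therefore do not hold for a gene that changes alone. In the real counts Slc38a6, at a log2 fold change of 0.60, was not called (adjusted p = 0.0623 by edgeR). Simulated counts were drawn gene by gene from the means and spread that edgeR had fitted, with the same spread at every number. In them, intervals covered the true value for 94% of unchanged genes, which is near 95% by construction. The real differences were wider at number 1 and moved with transcript length there, so this coverage may not hold for the real intervals.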

Additional observations from a re-analysis of the deposited data

Results flagged for a closer look

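Of 232 groups of 4 libraries examined for the named genes, 24 held a library far from the other 3 by Dixon's criterion, where chance alone flags about 1 in 20. Libraries of number 4 stood high for Eno2 in both groups (307 CPM in mimic 4, 291 in inhibitor 4), Pkm (3781.8 CPM in mimic 4), Pmvk (175) and Tm7sf2 (44.3) in mimic 4, Igf2bp3 (12.6) in mimic 4, and Usp28 (37.6), Kcnc1 (9.25) and Zdhhc20 (27.9) in inhibitor 4.

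Libraries of number 1 stood apart for Mcm3 in both groups, low in mimic 1 (259 CPM) and high in inhibitor 1 (305), for Ndufb6 (61.7) and Rps10 (140), low in mimic 1, and for Zc3h11a (22.4), high in inhibitor 1. Mimic 3 was low for Dnm1l (62.5), Zdhhc20 (20.7) and the histone gene H2ac22 (0.0404), which was high in inhibitor 2 (0.326). Pcdhgb7 was high in mimic 4 (1.31) and in inhibitor 3 (0.765), and it shares exons with other genes of its cluster. In 4 genes that were at or near 0 elsewhere in their group, 1 library held nearly all reads: Gm28048 in inhibitor 1 (34.1 CPM), ENSMUSG00000118471 in mimic 1 (18.9), Abi3 in mimic 1 (0.322) and Gm20521 in mimic 4 (9.37).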

How the results depend on the processing

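The count of genes bounded within 0.5 on the log2 scale, by interval or by adjusted one-sided test, stayed within 1.5 times its value under every alternative run. The number of called genes was 1 by the edgeR test reported, 2 with DESeq2 and with limma-voom (1 higher in each), 4 without the low-count filter (2 higher, 2 lower, of which Gm28048 and ENSMUSG00000118471 rest on 1 library each), 0 with all 12 libraries with or without the number (0 lower), and 0 with Gm49378 and Ipo4 summed (0 lower), an alternative chosen after seeing the data. Leaving out each number in turn gave 1 to 6 called genes, 0 to 3 higher and 1 to 3 lower, the 6 being without number 1, and without number 4 Gm20521 was called too. Genes at an unadjusted p under 0.05 were 307 of 12805 (uniform p-values would give 640), 139 with all 12 libraries and the number, 77 with all 12 and no number, and 249 to 595 with a number left out, 595 being without number 1. The genes with the same sign at 4 of 4 numbers became 2898 to 3283 with 1 sign over the 3 numbers left, by construction more. Among named genes whose fold change was refitted, which leaves out Raver1, Gm38431, Septin2 and Rps18-ps6, 14 had a value of the other sign under at least 1 alternative, and none of these was called. Without number 1 the sign turned for these values, given as their range with each number left out: log2 fold change of Mcm3 (-0.0749 to 0.016), log2 fold change of Fdps (-0.126 to 0.0175), log2 fold change of Eef2 (-0.0676 to 0.00316), log2 fold change of Hsp90ab1 (-0.0686 to 0.0298), log2 fold change of Actg1 (-0.145 to 0.0437), log2 fold change of Tubb5 (-0.0835 to 0.0537), log2 fold change of Actb (-0.0672 to 0.0553), log2 fold change of Pkm (-0.0417 to 0.0695) and log2 fold change of Il13ra1 (-0.0251 to 0.139). The sign turned without number 1 and without number 2 for log2 fold change of Jarid2 (-0.0167 to 0.0251), without number 2 for log2 fold change of Xpo5 (-0.0252 to 0.00986), without number 3 for log2 fold change of Eef1a1 (-0.00635 to 0.0108) and log2 fold change of Trp53inp1 (-0.199 to 0.0606), and without number 4 for log2 fold change of Bach1 (-0.138 to 0.0729). On log2(TPM + 1), where the median of all genes was 0.0276, Actb (9.35e-05), Pkm (0.0181), Bach1 (0.00526) and Xpo5 (0.0203) were above 0. Jarid2 was below 0 with no number term (-0.00487, and -0.00594 with 12 libraries), by DESeq2 (-0.000626) and with RLE scaling (-0.00045). The cause of these shifts was not tested.

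The replicate block rests on a shared number alone. The deviations of same-numbered libraries from their group means correlated at 0.0278, 0.158, 0.255 and 0.487 for numbers 1 to 4, and 3 of 4 mimic libraries correlated best with the inhibitor library of their own number, as a hint from the data. With no replicate block, 70 genes had an unadjusted p under 0.05 and Gm49378 remained the called gene.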
